A study of Mus musculus with 45 samples.

Results

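The 7 genes Vcam1, Icam1, Cd44, Has1, Has2, Tnfaip6 and Vcan were followed in mouse embryonic fibroblasts given inflammatory stimuli. They were the genes whose Ensembl identifiers map to these 7 symbols, out of 37991 genes in the count file, and all 7 were measured in all 45 libraries. Vcam1 and Icam1 are cell surface proteins of the immunoglobulin superfamily. Leukocytes hold on to them through integrins, Vcam1 chiefly through integrins with the alpha-4 chain and Icam1 through the beta-2 integrins. Has1 and Has2 are enzymes of the plasma membrane that spin out hyaluronan, a long unbranched sugar polymer of the space between cells. Cd44 is its main receptor at the cell surface, Tnfaip6 (also called TSG-6) transfers protein chains onto it, and Vcan (versican) is a large proteoglycan that binds along it. In the mm9 coordinates of the count file, Vcam1 lies on chromosome 3 (115812938 to 115832606, minus strand), Icam1 on 9 (20820404 to 20833241, plus), Cd44 on 2 (102651298 to 102741822, minus), Has1 on 17 (17980292 to 17992152, minus), Has2 on 15 (56497182 to 56526094, minus), Tnfaip6 on 2 (51893529 to 51912206, plus) and Vcan on 13 (89794915 to 89882117, minus). Inflamed stromal cells are known both for displaying adhesion molecules and for building a hyaluronan matrix to which leukocytes stick.

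The cells were primary fibroblasts of strain C57BL/6, either wild type (WT) or p53-/- (written p53KO here). The p53KO cells lack the tumour suppressor p53, and the submitters used them because such cells can be propagated for longer, and the WT cells came from littermates. After a night in low serum, cells received 10 ng/ml of the cytokine IL-1b, 10 ng/ml of the cytokine TNF, or 100 ng/ml of LPS, a bacterial outer membrane component, and RNA was taken at 0, 0.5, 1, 3 and 8 h. Each stimulus had its own 0 h libraries, which had received no agent. Every p53KO group held 2 libraries, from the cells named KO-1 and KO-2, and every WT group held 1, so a WT value carries no error of its own. The labels call KO-1 and KO-2 biological replicates without naming the embryos they came from, so p-values measure the spread between these libraries, which may be technical. Levels are CPM, a gene's count scaled to the TMM-normalized total of gene counts in its library. Changes are log2 differences with a standard error (SE) from one edgeR quasi-likelihood fit over all libraries. A change is called where its Benjamini-Hochberg adjusted p, taken over the 13851 genes tested, was under 0.05.

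Gene counts per library ran from 5619870 to 15355994. Trp53, the deleted gene, lay at 158 to 293 CPM in the 15 WT libraries (median 198) and at 50.9 to 86.6 CPM in the 30 p53KO libraries, with no overlap, and the labels do not give the part of the gene that was removed. The 10 fibroblast markers summed to 21859 to 29015 CPM. Of the endothelial markers, Tie1 had a median of 0 CPM, and Pecam1 and Cdh5 medians of 0.499 and 0.56 CPM. The highest medians of that list were those of Kdr at 13.4 CPM (5.27 to 22.1), Sele at 5.32 CPM (0.227 to 69.8) and Emcn at 4.37 CPM (1.98 to 6.97). The 10 macrophage and leukocyte markers were all above 0 in every library. Their sum was 320 to 397 CPM in p53KO at 0 h and 379 to 502 CPM at 3 h, and in WT 423 to 446 CPM and 601 to 631 CPM, and its part in the results below was not tested. The epithelial list, led by keratins, summed to 47.0 to 52.1 CPM in p53KO at 0 h and 73.3 to 89.8 CPM at 3 h. The muscle list, led by Cnn1, Des and Myh11, summed to 358 to 419 CPM in p53KO at 0 h, 476 to 532 CPM at 3 h and 257 to 370 CPM at 8 h, and the part of these lists was not tested either. In these bulk samples fewer cells of a type and less RNA per cell cannot be told apart. Some libraries stood apart by transcript length. Spearman's rho across 9561 genes between length and the level relative to the mean of the same cells was -0.42 and -0.60 in the p53KO IL-1b libraries of 0.5 h, -0.49 in the WT IL-1b library of 3 h and 0.40 in the KO-1 TNF library of 0 h. Some of the results that rest on these, but not all, are also given with each library's trend on transcript length and GC content removed by offsets.

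Promoter sequence, 250 bases before to 50 bases after the annotated start, was available for 5 of the 7 genes in RefSeq (build GRCm38.p6). It was searched on both strands for GGNNNTTCC, a short core shared by many NF-kB sites, for TGANTCA, the AP-1 core, and for TATAAA. NF-kB and AP-1 are factors that these stimuli are known to activate. Icam1, Tnfaip6 and Vcan are printed because they hold the motif matches found (Icam1 and Tnfaip6) or, for Vcan, because its time course, described further on, was late and its window held none. Capitals mark matches to GGNNNTTCC or TGANTCA.
Icam1, chr9:21015690-21015989, plus strand: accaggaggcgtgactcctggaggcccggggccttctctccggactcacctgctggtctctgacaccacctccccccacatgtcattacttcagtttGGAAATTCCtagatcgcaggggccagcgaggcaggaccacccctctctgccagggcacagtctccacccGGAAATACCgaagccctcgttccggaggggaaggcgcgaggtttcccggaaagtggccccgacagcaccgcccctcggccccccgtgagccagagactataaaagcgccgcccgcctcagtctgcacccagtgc
Tnfaip6, chr2:52037863-52038162, plus strand: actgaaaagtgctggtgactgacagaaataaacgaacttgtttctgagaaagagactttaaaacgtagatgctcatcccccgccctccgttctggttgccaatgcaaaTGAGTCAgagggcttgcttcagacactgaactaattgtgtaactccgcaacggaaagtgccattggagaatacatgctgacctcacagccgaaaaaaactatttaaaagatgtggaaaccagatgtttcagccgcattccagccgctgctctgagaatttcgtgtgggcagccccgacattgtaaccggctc
Vcan, chr13:89742463-89742762, minus strand: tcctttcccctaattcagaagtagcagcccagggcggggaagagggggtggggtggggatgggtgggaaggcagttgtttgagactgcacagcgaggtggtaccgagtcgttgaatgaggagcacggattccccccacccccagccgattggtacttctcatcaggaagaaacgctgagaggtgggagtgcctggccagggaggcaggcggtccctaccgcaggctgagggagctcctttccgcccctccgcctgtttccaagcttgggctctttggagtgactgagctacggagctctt
The Icam1 window held GGAAATTCC from base -153, which fits GGNNNTTCC on both strands, and GGAAATACC from base -84, whose reverse complement fits GGNNNTTCC. It also held TATAAA from base 14 after the start. The Tnfaip6 window held TGAGTCA from base -142. The windows of Vcan, Cd44 and Has1 held none of the 3 motifs. Of these genes, Cd44 and Has1 were called higher in p53KO at 3 h with each stimulus, and Vcan was not. A link between motifs and time course was not tested. A longer NF-kB consensus, the decamer, was found in none of the 5 windows, and 4.51% of all promoters held it. Among 32851 mouse promoters of the same length, 18.5% held GGNNNTTCC, 7.81% TGANTCA and 13.6% TATAAA. These matches are descriptions of letters and not of bound sites.

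At rest, the levels of the genes were spread widely. Per kilobase of the longest transcript, the median over the p53KO libraries at 0 h was 47.7 CPM for Cd44, 43.4 for Vcam1, 23.0 for Vcan, 12.04 for Has2, 5.92 for Tnfaip6, 3.24 for Icam1 and 0.165 for Has1. No neighbours in this order overlapped over the 6 libraries. The order depends on the length used. The joined exons of all transcripts span 8870 bases for Vcam1 and 14462 for Vcan, against 4088 and 12427 for their longest transcripts. An order by joined exons was not taken. In WT the order began with Cd44 at 117 CPM per kilobase and Vcam1 at 33.0, and then had Has2 at 17.3 above Vcan at 14.0, Tnfaip6 at 6.04, Icam1 at 4.34 and Has1 at 0.320. So before any stimulus these fibroblasts carried much Cd44 and Vcam1 RNA, and little Icam1 and hardly any Has1 RNA.

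In p53KO cells 6 of the 7 genes rose at 3 h with each stimulus, and Vcan alone was not called there. At that time 21% of all genes tested were called higher with IL-1b, 18.4% with TNF and 21.9% with LPS. The median log2 change of the 7 genes was 2.17, 1.96 and 2.39, against -0.02, -0.01 and -0.02 over all genes tested. The 7 genes and the lists used further on were chosen with earlier results of these data known. An excess over all genes, here or below, is therefore a description and no independent evidence. At 1 h the genes called higher were 4 with IL-1b (Vcam1, Icam1, Has1 and Tnfaip6), 5 with TNF (Vcam1, Icam1, Cd44, Has2 and Tnfaip6) and 3 with LPS (Cd44, Has2 and Tnfaip6), where 2.78%, 3.05% and 2.79% of all genes were. At 8 h they were 6, 6 and 6 of 7, against 12.5%, 14.5% and 17%. The gene not called at 8 h was Has2 with IL-1b and LPS and Has1 with TNF. At 0.5 h none was called higher with any stimulus, where 2.64%, 0.606% and 0.433% of all genes were, and Vcan with IL-1b was called lower, as 4.76% of all genes were. With edgeR at an unadjusted p under 0.05, 2 genes passed at 0.5 h with IL-1b, 2 with TNF and 1 with LPS, and DESeq2 called 1, 0 and 0. The share of all genes at the unadjusted threshold was not taken. All 49 changes called in p53KO had the same direction in the single WT library of that group. The matching share over all called genes was not taken, and the 49 are repeated times of the same 7 genes. Vcan at 0.5 h of IL-1b was among them, at -0.06 in WT against -0.49 in p53KO.

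**Figure D1:**
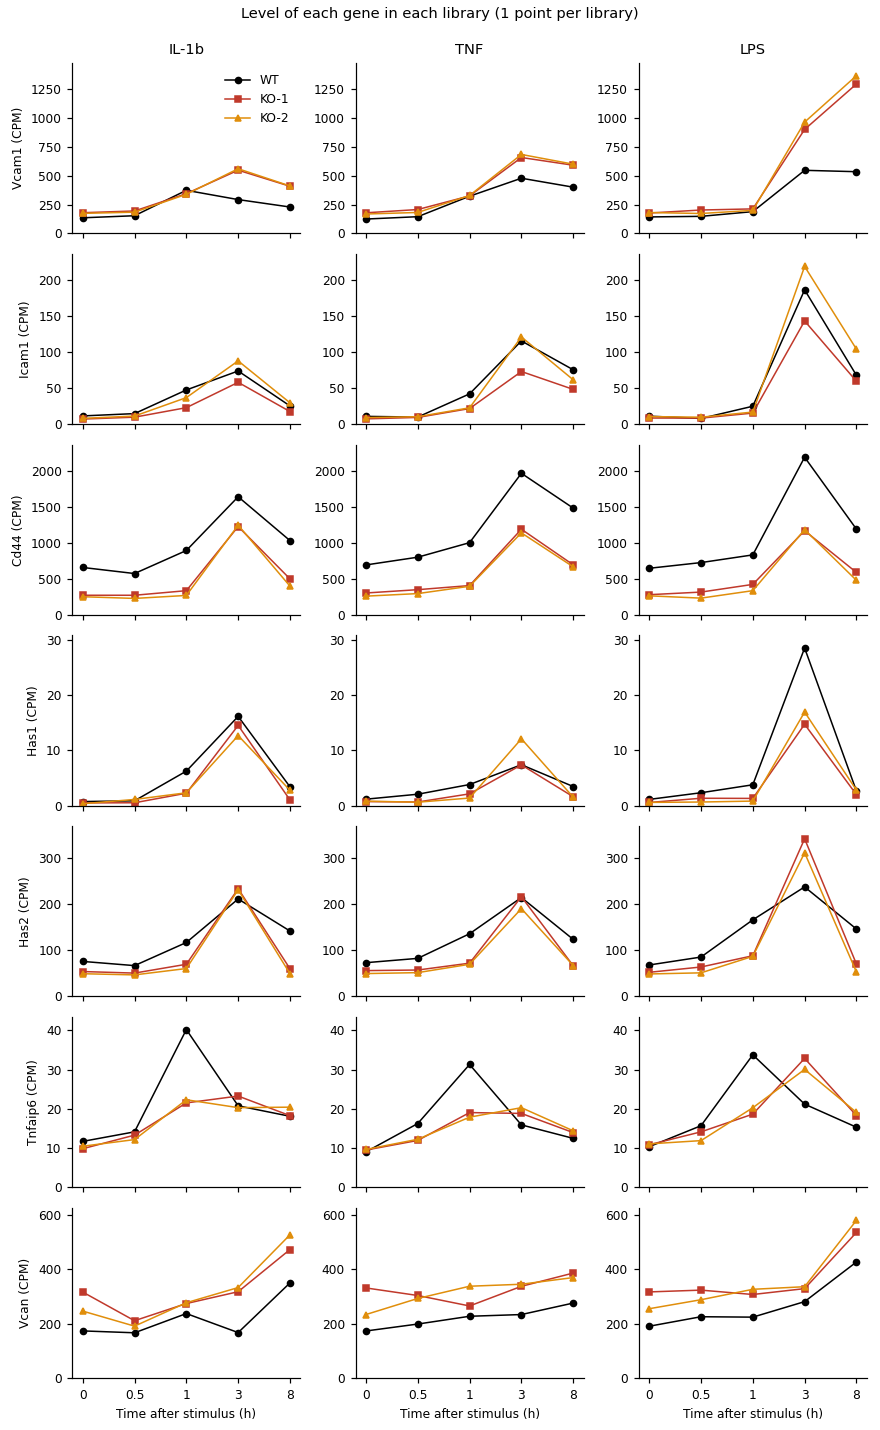
Level of each gene (CPM, linear axis from 0) against time after the stimulus (h, evenly spaced categories), 1 point per library, for WT (black circles), KO-1 (red squares) and KO-2 (orange triangles). Vcam1 climbed to 1297 and 1369 CPM in p53KO with LPS at 8 h, Cd44 was higher in WT throughout, and Tnfaip6 was highest at 1 h in WT.

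Vcam1 was called different between every pair of stimuli, as described further on. At some times the differences of Icam1 were larger, with a wider SE. With IL-1b its levels in KO-1 and KO-2 were 179 and 173 CPM at 0 h, 194 and 184 at 0.5 h, 345 and 339 at 1 h, 548 and 561 at 3 h and 409 and 411 at 8 h. With TNF they were 178 and 168 CPM, then 207 and 181, 325 and 329, 658 and 685, and 591 and 601. With LPS they were 176 and 181 CPM, then 202 and 172, 212 and 199, 902 and 966, and 1297 and 1369. KO-1 and KO-2 stayed close together, and the groups of 3 and 8 h did not overlap those of 0 h with any stimulus. The log2 change at 3 h was 1.65 (SE 0.07, adjusted p = 3.92e-15) with IL-1b, 1.96 (SE 0.08, adjusted p = 6.11e-16) with TNF and 2.39 (SE 0.08, adjusted p = 1.97e-18) with LPS. From 3 to 8 h Vcam1 fell by 0.44 with IL-1b (adjusted p = 3.88e-05), rose by 0.51 with LPS (adjusted p = 2.96e-06), and had a log2 difference of -0.17 with TNF that was not called (adjusted p = 0.0816), though with the length and GC offsets it was called at -0.25 (adjusted p = 0.0186). At 1 h of LPS its log2 change of 0.21 was not called (adjusted p = 0.131), and with the offsets it was called at 0.28 (adjusted p = 0.0387).

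Icam1 started low and rose steeply. Levels with IL-1b in KO-1 and KO-2 were 6.99 and 7.99 CPM at 0 h, 9.6 and 11.2 at 0.5 h, 22.8 and 36.7 at 1 h, 57.9 and 87.7 at 3 h and 17.4 and 29.5 at 8 h. The TNF libraries had 7.26 and 9.04 CPM, then 9.27 and 10.3, 21.6 and 22.6, 72.9 and 121, and 48.2 and 61.5. The LPS libraries had 8.43 and 10.5 CPM, then 8.32 and 9.57, 15.3 and 16.7, 143 and 219, and 59.4 and 104. KO-2 was above KO-1 in all 15 groups, by a median of 0.31 on the log2 scale, so the SE of Icam1 was wide although both had the same course. The log2 change at 3 h was 3.28 (SE 0.32), 3.56 (SE 0.33) and 4.25 (SE 0.30) for IL-1b, TNF and LPS, which is a rise of 8.29-fold in KO-1 and 10.97-fold in KO-2 with IL-1b and of 17.0-fold and 20.9-fold with LPS. It fell again by 8 h, with log2 differences from 3 h of -1.63 (adjusted p = 6.24e-05), -0.84 (adjusted p = 0.0189) and -1.14 (adjusted p = 0.000518). Some of the calls of Icam1 were lost when single libraries were left out. The TNF fall was lost without KO-2 at 3 h (adjusted p = 0.316), without KO-1 at 8 h (adjusted p = 0.217) and with DESeq2 (adjusted p = 0.066), and the IL-1b rise at 8 h (log2 change 1.65) was lost without KO-2 at 8 h (adjusted p = 0.0526). The TNF rise at 1 h was lost without any one of its 4 libraries (adjusted p = 0.07 to 0.167). At 1 h with LPS the log2 change of 0.75 was not called (adjusted p = 0.326), but it was called with the replicate block, which takes off the steady difference between KO-1 and KO-2 (adjusted p = 0.00885).

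Cd44, the hyaluronan receptor, had the highest level per kilobase of the 7 genes at 0 h, and it rose and fell within the 8 h. KO-1 and KO-2 given IL-1b had 272 and 252 CPM at 0 h, 272 and 228 at 0.5 h, 335 and 269 at 1 h, 1224 and 1242 at 3 h and 499 and 398 at 8 h. Those given TNF had 303 and 260 CPM, then 349 and 295, 406 and 397, 1187 and 1136, and 693 and 666. Those given LPS had 280 and 264 CPM, then 316 and 232, 422 and 336, 1166 and 1181, and 588 and 478. The 3 h levels lay within 1136 to 1242 CPM whichever stimulus was given, far above every earlier p53KO library. The log2 change at 3 h was 2.24, 2.04 and 2.11 (SE 0.14 each; adjusted p = 2.94e-12, 2.53e-11 and 4.94e-12), and Cd44 fell from 3 to 8 h, with log2 differences of -1.46, -0.77 and -1.14 (adjusted p = 8.14e-09, 0.000162 and 3.19e-07). Its calls at 1 h were fragile. The TNF call (log2 change 0.51, adjusted p = 0.0247) was lost without KO-2 at 0 h (adjusted p = 0.238), KO-1 at 1 h (0.117) or KO-2 at 1 h (0.072), and the LPS call (log2 change 0.48, adjusted p = 0.04) without KO-1 at 0 h (0.131), KO-2 at 0 h (0.229) or KO-1 at 1 h (0.507).

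The 2 hyaluronan synthases peaked at 3 h and fell back. Has1 was near the limit of detection at 0 h, with 4 to 7 counts in each p53KO library. The IL-1b levels in KO-1 and KO-2 were 0.499 and 0.351 CPM at 0 h, 0.525 and 1.12 at 0.5 h, 2.26 and 2.33 at 1 h, 14.5 and 12.7 at 3 h and 1.04 and 2.79 at 8 h. The TNF levels were 0.738 and 0.821 CPM, then 0.662 and 0.627, 2.14 and 1.38, 7.39 and 12.1, and 1.62 and 1.54. The LPS levels were 0.575 and 0.59 CPM, then 1.34 and 0.66, 1.31 and 0.829, 14.8 and 17.0, and 2.00 and 2.82. Only the 3 h libraries passed 3 CPM in p53KO. The log2 change at 3 h was 4.96 (SE 0.37), 3.60 (SE 0.39) and 4.74 (SE 0.35), and Has1 fell from 3 to 8 h, with log2 differences of -2.83, -2.59 and -2.71 (adjusted p = 4.54e-08, 1.94e-06 and 2.5e-08). With IL-1b the rise at 8 h over 0 h (log2 change 2.13, adjusted p = 0.00471) was lost without KO-2 at 8 h (1.26, adjusted p = 0.201) or without KO-2 at 0 h (1.91, adjusted p = 0.05003).

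Has2 was present before the stimulus and was back near its starting level at 8 h. With IL-1b its levels in KO-1 and KO-2 were 54.1 and 49.3 CPM at 0 h, 50.7 and 46.8 at 0.5 h, 69.8 and 60.6 at 1 h, 234 and 232 at 3 h and 60.2 and 49.4 at 8 h. With TNF they were 56.1 and 49.6 CPM, then 57.4 and 51.7, 72.2 and 69.9, 216 and 191, and 66.7 and 67.1. With LPS they were 52.4 and 48.8 CPM, then 63.9 and 51.2, 88.4 and 87.1, 342 and 312, and 70.3 and 53.1. The 3 h libraries stood well above all others, and those of 8 h overlapped those of 0 h with IL-1b. The log2 change at 3 h was 2.17 (SE 0.11), 1.95 (SE 0.12) and 2.69 (SE 0.12), and Has2 fell from 3 to 8 h, with log2 differences of -2.09, -1.61 and -2.41 (adjusted p = 6.21e-13, 2.29e-10 and 4.17e-14). Against 0 h, the 8 h log2 change was 0.08 with IL-1b (adjusted p = 0.667), 0.34 with TNF (adjusted p = 0.0394) and 0.29 with LPS (adjusted p = 0.0675, or 0.00908 with the replicate block, 0.00576 with the offsets and 0.049 with RLE scaling). The TNF call at 8 h was lost with DESeq2 (adjusted p = 0.0554) and without KO-2 at 0 h (0.274), KO-1 at 8 h (0.151) or KO-2 at 8 h (0.105). At 1 h the LPS rise of 0.79 was called (adjusted p = 4.45e-05), the TNF rise of 0.43 was called (adjusted p = 0.0322) but was lost without any one of its 4 libraries (adjusted p = 0.0596 to 0.262), and the IL-1b value of 0.34 was not called (adjusted p = 0.101), though it was with the replicate block (0.00753), the offsets (0.0179), no filter on low counts (0.0153) and pooled 0 h libraries (0.00935).

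Tnfaip6, whose protein cross-links the hyaluronan matrix, made a smaller and flatter rise. Its levels with IL-1b in KO-1 and KO-2 were 9.81 and 10.4 CPM at 0 h, 13.3 and 12.1 at 0.5 h, 21.5 and 22.3 at 1 h, 23.2 and 20.3 at 3 h and 18.2 and 20.4 at 8 h. After TNF they were 9.47 and 9.62 CPM, then 11.9 and 12.2, 19.0 and 17.9, 18.8 and 20.3, and 13.9 and 14.4. After LPS they were 10.8 and 11.05 CPM, then 14.1 and 11.9, 18.6 and 20.3, 32.8 and 30.03, and 18.3 and 19.1. From 1 h on every p53KO library was above every p53KO library of 0 h. The log2 change was already 1.11, 0.95 and 0.83 at 1 h (SE 0.11 to 0.12; adjusted p = 2.79e-08, 2.76e-06 and 1.27e-05) and was 1.10, 1.03 and 1.52 at 3 h. From 3 to 8 h it fell by 0.75 with LPS (adjusted p = 1.84e-06) and by 0.47 with TNF (adjusted p = 0.00339, or 0.0538 with DESeq2 and 0.071 without KO-1 at 8 h), and the log2 difference with IL-1b was -0.17 (adjusted p = 0.211).

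Vcan behaved apart from the other genes, with its rise at 8 h. With IL-1b its levels in KO-1 and KO-2 were 317 and 247 CPM at 0 h, 211 and 191 at 0.5 h, 274 and 277 at 1 h, 318 and 333 at 3 h and 473 and 528 at 8 h. With TNF they were 332 and 234 CPM, then 304 and 293, 265 and 338, 338 and 346, and 387 and 370. With LPS they were 317 and 255 CPM, then 324 and 288, 308 and 327, 329 and 336, and 537 and 581. At 0 h KO-1 was above KO-2 in all 3 series, and the libraries of 8 h lay above those of 0 h in each. The log2 change at 8 h was 0.83 (SE 0.13, adjusted p = 3.46e-05), 0.42 (SE 0.13, adjusted p = 0.0176) and 0.97 (SE 0.13, adjusted p = 1.74e-06). The TNF call was lost without KO-2 at 0 h (0.19, adjusted p = 0.381) or KO-1 at 8 h (0.39, adjusted p = 0.112). At 3 h the values of 0.21, 0.27 and 0.22 were not called (adjusted p = 0.206, 0.108 and 0.183). With the length and GC offsets they became 0.34, 0.34 and 0.39 and were called (adjusted p = 0.000146, 0.000228 and 3.44e-05), and Vcan has the longest transcript of the 7 genes, at 12427 bases. Without KO-1 at 0 h the 3 h value was also called with IL-1b (0.40, adjusted p = 0.0449) and with TNF (0.55, adjusted p = 0.00473). The fall at 0.5 h with IL-1b (log2 change -0.49, SE 0.13, adjusted p = 0.0243) falls on the pair of libraries with the strongest length trend, and was -0.09 with the offsets (adjusted p = 0.604). It was also lost without KO-1 at 0 h (adjusted p = 0.399), KO-1 at 0.5 h (0.0508) or KO-2 at 0.5 h (0.221).

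**Figure D2:**
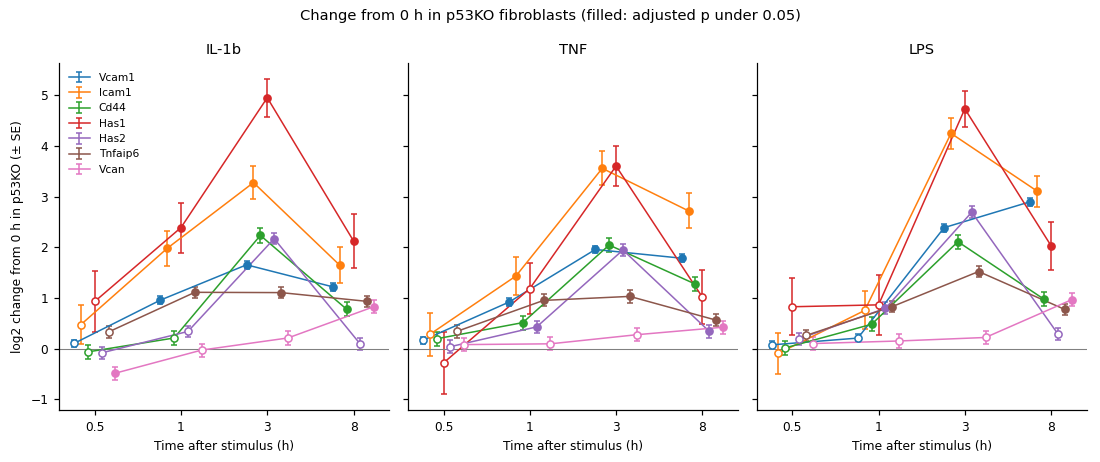
Log2 change from 0 h in p53KO (vertical axis, with bars of 1 SE) against time (h, evenly spaced categories) for each gene and stimulus; filled points have an adjusted p under 0.05. Has1, Has2, Cd44 and Icam1 are highest at 3 h, Vcam1 with LPS climbs on to 2.90 at 8 h, and Vcan is called higher at 8 h, after a call at -0.49 at 0.5 h of IL-1b.

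Between 3 and 8 h most of the genes fell. Of the 7 genes, 5 fell with IL-1b, 5 with TNF and 5 with LPS, where 17%, 12.6% and 18% of all genes tested did. Cd44, Has1, Has2 and Icam1 fell with each stimulus. Vcam1 was the other with IL-1b and Tnfaip6 the other with TNF and LPS. Vcan rose with IL-1b by 0.62 (adjusted p = 0.000518; 18.5% of all genes rose) and with LPS by 0.75 (adjusted p = 5.5e-05), where Vcam1 rose too and 20.2% of all genes did. With DESeq2 only 3 genes were called lower with TNF, as Tnfaip6 and Icam1 lost their calls.

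The 3 stimuli were compared in p53KO by an F test over the 4 times on the change from each stimulus's own 0 h. LPS and IL-1b differed for Vcam1 (adjusted p = 2.76e-14), Icam1 (0.000272) and Tnfaip6 (0.017), which is 3 of 7 genes against 6.91% of all genes. LPS and TNF differed for Vcam1 (1.73e-11), Has2 (0.00585) and Tnfaip6 (0.0451), 3 of 7 against 5.14%. IL-1b and TNF differed for Vcam1 (0.00298) and Vcan (0.0442), 2 of 7 against 1.42%. Has1 and Cd44 were not called for any pair of stimuli, which does not show that their responses were alike. For Has1 at 3 h the log2 difference of LPS from TNF was 1.13 with an SE of 0.69.

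Vcam1 was slower and then higher with LPS. At 1 h the LPS change was below that with IL-1b by 0.75 (SE 0.10, adjusted p = 0.000169; 0.347% of all genes called) and below that with TNF by 0.71 (SE 0.11, adjusted p = 0.000599; 0.13% called), both on the log2 scale. At 3 h LPS was above IL-1b by 0.73 (SE 0.10, adjusted p = 3.78e-05; 1.61% called) and above TNF by 0.43 (SE 0.10, adjusted p = 0.0235; 1.88% called). The last of these was lost without KO-1 or KO-2 at 0 h of LPS (adjusted p = 0.107 and 0.0709), KO-2 at 3 h of LPS (0.167), KO-1 at 0 h of TNF (0.143) or KO-1 at 3 h of TNF (0.123). At 8 h LPS was above IL-1b by 1.68 (SE 0.10, adjusted p = 7.67e-12; 3.92% called) and above TNF by 1.12 (SE 0.10, adjusted p = 2.2e-08; 4.4% called). IL-1b was then below TNF by 0.57 (SE 0.10, adjusted p = 0.0067; 0.505% called), a call lost without KO-1 at 0 h of IL-1b (adjusted p = 0.0529) or KO-2 at 0 h of TNF (0.0712).

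Has2, Icam1, Cd44 and Vcan differed between stimuli in some fits. Has2 rose further with LPS than with TNF at 3 h, by 0.75 (SE 0.16, adjusted p = 0.00945), though this call was lost without KO-2 at 0 h of LPS (adjusted p = 0.0712), KO-1 at 3 h of LPS (0.057), KO-1 at 0 h of TNF (0.101) or KO-2 at 3 h of TNF (0.0601), and the F test without the last was at 0.0523. With the replicate block Has2 also differed between LPS and IL-1b over the 4 times (adjusted p = 0.00951). Icam1 differed with the block in each pair, with adjusted p = 9.74e-05 for LPS against TNF and 5.86e-05 for IL-1b against TNF, where the fit without the block gave 0.228 and 0.202. Without the block, the log2 difference of Icam1 between LPS and IL-1b was -1.23 at 1 h, 0.97 at 3 h and 1.46 at 8 h (SE 0.48 to 0.52). None of these was called (adjusted p = 0.99991, 0.708 and 0.127). With the block the values were -1.20, 0.99 and 1.47, and they were called (adjusted p = 0.019, 0.0167 and 0.000124). Icam1 and Cd44 with the block were also lower with IL-1b than with TNF at 8 h (adjusted p = 0.0239 and 0.0495), and Cd44 differed over the 4 times (0.00591). Vcan over 4 times differed between LPS and TNF with the offsets (adjusted p = 1.7e-05, against 0.217 without them) and without KO-2 at 0 h of TNF (0.0335).

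For Tnfaip6 and Vcan the calls of the F tests were easily lost, and for LPS against TNF and IL-1b against TNF the adjusted p lay just under the threshold. Tnfaip6 lost its LPS against IL-1b call without KO-2 at 3 h of IL-1b (adjusted p = 0.142) or KO-1 at 3 h of LPS (0.116), with the offsets (0.0683) and with no filter on low counts (0.0608). Its LPS against TNF call was lost without any one of 19 of the 20 libraries, all but KO-1 at 0.5 h of LPS (adjusted p = 0.0528 to 0.216), with the offsets (0.0506), with p53KO libraries alone (0.0545) and with no filter (0.145). Vcan lost its IL-1b against TNF call without any one of 14 of the 20 libraries (adjusted p = 0.0508 to 0.21), all but those at 0 h of both stimuli and those at 1 h of TNF. With the 0.5 h time left out of the F test the adjusted p for Vcan was 0.554. With the length and GC offsets the call over the 4 times was kept (adjusted p = 0.00628), and at 8 h Vcan was then called higher with IL-1b than with TNF, by 0.43 (adjusted p = 0.0297).

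Levels also differed between genotypes. Counts were summed over the 15 libraries of WT, KO-1 and KO-2, and 12918 genes were tested with 2 p53KO sums against 1 WT sum. A sum weights each library by its depth, so genes that peak at 3 h weigh more where the 3 h libraries are deep. At 3 h of IL-1b, TNF and LPS, the WT libraries held 11737371, 12219829 and 8082023 gene counts. KO-1 held 9658248, 9010974 and 8353885 there, and KO-2 9030415, 7780415 and 8706727. The part of depth in the differences below was not tested. Vcam1 and Vcan were higher in p53KO, 2 of 7 genes against 21.1% of all genes, and Cd44, Has1, Has2 and Tnfaip6 were lower, 4 of 7 against 19.2%. Cd44 was at 1096 CPM in WT and at 529 and 460 CPM in KO-1 and KO-2 (log2 difference -1.15, SE 0.08, adjusted p = 6.19e-05), and no p53KO library of 0 h, at 252 to 303 CPM, reached the WT range of 646 to 692 CPM. Vcam1 was at 280.3 CPM in WT and 415 and 403 CPM in p53KO (log2 difference 0.55, adjusted p = 0.000339). Vcan was at 237 CPM against 332 and 322 CPM (0.46, adjusted p = 0.000647). Has2 was at 133 CPM against 95.8 and 86.0 CPM (-0.55, adjusted p = 0.000802). Has1 was at 5.59 CPM against 3.05 and 3.29 CPM (-0.81, adjusted p = 0.00315), and on the 0 h libraries alone it was not called (-0.79, adjusted p = 0.206). Tnfaip6 was at 19.1 CPM against 16.6 and 16.2 CPM (-0.22, adjusted p = 0.0367), a call lost on the 0 h libraries alone (-0.02, adjusted p = 0.928), with DESeq2 (0.194), with no filter (0.0762) and with libraries as samples (0.0696). Icam1 at 47.9 CPM against 31.5 and 43.8 CPM was not called (-0.35, adjusted p = 0.122), though it was with libraries as samples (-0.28, adjusted p = 0.00927). Marker sums differed between genotypes at 0 h as well. The leukocyte list was at 423 to 446 CPM in WT and 320 to 397 CPM in p53KO, the muscle list at 195 to 212 CPM and 358 to 419 CPM, the epithelial list at 32.5 to 35.3 CPM and 47.0 to 52.1 CPM, and the endothelial list at 14.5 to 18.3 CPM and 22.04 to 26.0 CPM, and their part in these differences was not tested. With 1 WT line, a difference between genotypes and one between lines cannot be told apart.

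WT and p53KO cells also differed in the shape of the response for some of the genes, tested as the difference between genotypes in the change from 0 h. Over the 4 times, 4 of 7 genes differed with IL-1b (Vcam1, Has2, Tnfaip6 and Cd44; 5.74% of all genes did), 1 with TNF (Tnfaip6; 0.462%) and 3 with LPS (Vcam1, Has2 and Tnfaip6; 2.66%). The single WT library of a group took its spread from the p53KO groups in this fit.

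Tnfaip6 was highest at 1 h in each WT series, whereas in p53KO its 1 h and 3 h levels lay close together with IL-1b and TNF and the 3 h level was the higher with LPS. In WT its level went from 11.7 to 14.1, 40.2, 20.7 and 18.1 CPM with IL-1b, from 9.02 to 16.2, 31.3, 15.9 and 12.5 CPM with TNF, and from 10.3 to 15.7, 33.7, 21.2 and 15.3 CPM with LPS over the 5 times. At 1 h all 3 WT libraries were above 31 CPM, whereas the 6 p53KO libraries lay at 17.9 to 22.3 CPM. The F test gave adjusted p = 0.00215 with IL-1b, 0.0099 with TNF and 0.000159 with LPS. At 1 h alone the p53KO change was below that of WT by 0.67, 0.84 and 0.88 (SE 0.19 to 0.21; adjusted p = 0.456, 0.341 and 0.083), and none of the 7 genes was called at that time with any stimulus, where 0.0866%, 0.0722% and 0.137% of all genes were. At an unadjusted p under 0.05 edgeR passed 3, 3 and 2 of the 7 genes at 1 h, and DESeq2 called 0, 0 and 0. The share of all genes passing that unadjusted threshold was not taken, so these counts cannot be set against it. With pooled 0 h libraries Tnfaip6 was called at 1 h with IL-1b (-0.85, adjusted p = 0.00254), TNF (-0.74, adjusted p = 0.0369) and LPS (-0.77, adjusted p = 0.0108), and Vcam1 with IL-1b (-0.52, adjusted p = 0.00888).

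Has2 stayed further above its start at 8 h in WT than in p53KO. In the edgeR fit described at the outset this was called with LPS alone. With TNF the log2 difference of p53KO from WT at 8 h was -0.42 (SE 0.21). The WT level of Has2 went from 76.0 to 66.9, 117, 212 and 142 CPM with IL-1b, from 73.3 to 82.7, 136, 215 and 124 CPM with TNF, and from 68.3 to 85.5, 166, 238 and 146 CPM with LPS. At 8 h the WT libraries held 124 to 146 CPM and the p53KO libraries 49.4 to 70.3 CPM. With LPS the p53KO change was above that of WT at 3 h by 0.89 (SE 0.20, adjusted p = 0.0222; 0.83% of all genes called) and below it at 8 h by 0.81 (SE 0.20, adjusted p = 0.048; 0.931% called), and the F test gave 3.24e-05. The 3 h call was lost without KO-2 at 0 h (adjusted p = 0.0888) or KO-1 at 3 h (0.0858), and the 8 h call without KO-1 at 0 h (0.155), KO-2 at 0 h (0.08) or KO-2 at 8 h (0.182), with RLE scaling (0.0624) and with DESeq2 (0.0612). With IL-1b the F test gave 0.000231, and 0.0894 when the 3 h time was left out. The IL-1b difference at 3 h was 0.69 (SE 0.19, adjusted p = 0.0453; 3.37% called), lost without any one of its 4 p53KO libraries (adjusted p = 0.0569 to 0.148), and 0.73 with the offsets (adjusted p = 0.023). At 8 h with IL-1b the difference was -0.82 and was not called (adjusted p = 0.193). It was called with the replicate block (adjusted p = 0.00558), with no filter on low counts (0.000533) and with pooled 0 h libraries (0.003). With TNF the F test was at 0.11, and at 0.000728 with the block and 0.0342 with the offsets.

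Vcam1 rose further in p53KO than in WT with IL-1b at 3 h and with LPS at 8 h. In WT it went from 135 to 153, 374, 293 and 229 CPM with IL-1b, from 124 to 144, 322, 478 and 401 CPM with TNF, and from 142 to 147.5, 188, 547 and 535 CPM with LPS. With IL-1b WT was thus highest at 1 h and p53KO at 3 h, and with LPS WT stayed level between 3 and 8 h while p53KO climbed. The p53KO change with LPS at 8 h was above that of WT by 0.99 (SE 0.13, adjusted p = 7.9e-05), and the F test gave 8.95e-06. With IL-1b the F test gave 4.59e-05, or 0.00128 with the 3 h time left out, and the difference at 3 h was 0.53 (SE 0.13, adjusted p = 0.0207; 0.59 with the offsets, adjusted p = 0.023). That 3 h call was lost without KO-2 at 0 h (adjusted p = 0.0711) or KO-2 at 3 h (0.0814). With TNF the difference at 3 h was 0.01 (SE 0.13) and the F test was at 0.165, or 0.0223 with the replicate block and offsets together.

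Cd44 was called between genotypes with IL-1b, and this call rested on the 3 h libraries. WT went from 657 to 573, 892, 1636 and 1029 CPM with IL-1b, from 692 to 799, 1001, 1962 and 1480 CPM with TNF and from 646 to 725, 831, 2184 and 1188 CPM with LPS, so the WT level at 3 h was lowest with IL-1b, in the library with the length trend. The p53KO change at 3 h of IL-1b was above that of WT by 0.92 (SE 0.24, adjusted p = 0.0292), and by 0.81 with the offsets (adjusted p = 0.0502). It was lost without KO-2 at 0 h (adjusted p = 0.096), KO-1 at 3 h (0.0529) or KO-2 at 3 h (0.0952). The F test (adjusted p = 0.0246) was lost without KO-1 or KO-2 at 3 h (0.0637 and 0.0933) and was at 0.871 with the 3 h time left out. With TNF its F test was at 0.727, but at 0.0304 with the replicate block and offsets together and 0.0334 with no filter on low counts, and the TNF difference at 3 h of 0.54 was 0.58 and called with the block and offsets (adjusted p = 0.0301). Icam1, Has1 and Vcan were not called between genotypes in induction, though Icam1 was with the replicate block and offsets together for IL-1b (adjusted p = 0.00832) and LPS (0.0367). Their WT levels at 0 and 3 h were 11.4 and 73.7, 10.7 and 115, and 11.01 and 186 CPM for Icam1 with IL-1b, TNF and LPS. They were 0.743 and 16.2, 1.18 and 7.41, and 1.13 and 28.6 CPM for Has1. For Vcan the WT levels at 0 and 8 h were 174 and 350, 173 and 276, and 191 and 428 CPM.

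**Figure D3:**
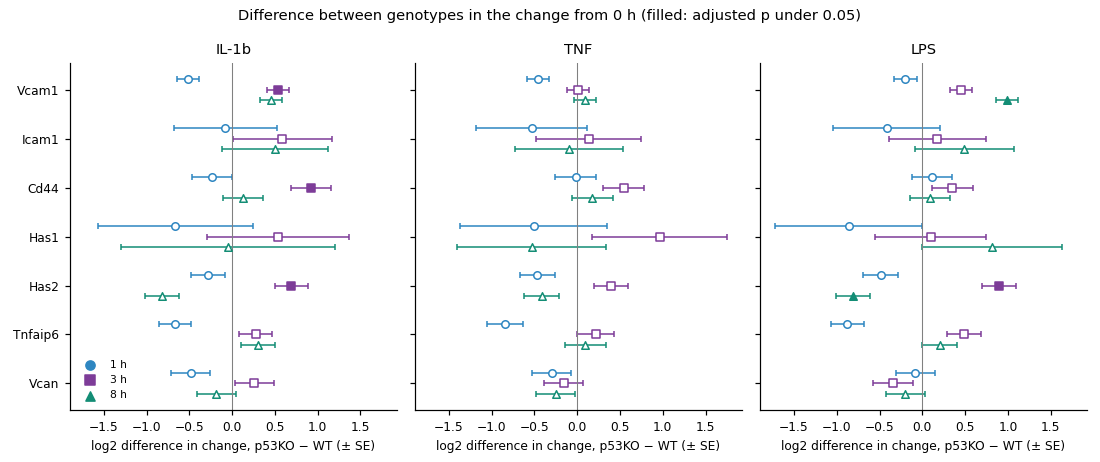
Difference between p53KO and WT in the log2 change from 0 h (horizontal axis, bars of 1 SE) at 1 h (blue circles), 3 h (purple squares) and 8 h (green triangles) for each gene and stimulus; filled points have an adjusted p under 0.05. Tnfaip6 at 1 h lies at -0.67 to -0.88, Has2 moves from 0.89 at 3 h to -0.81 at 8 h with LPS, and the bars of Icam1 and Has1 are the widest.

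Other genes of leukocyte adhesion and of hyaluronan were followed as lists. Of 36 adhesion genes (selectins, integrins, junctional adhesion molecules, shedding enzymes and cytoskeletal linkers) 30 could be tested, and at 3 h in p53KO 12 rose and 2 fell with IL-1b, 11 and 2 with TNF, and 13 and 1 with LPS. The list's median log2 change was 0.38, 0.27 and 0.12. Over all genes 21%, 18.4% and 21.9% were called higher at that time, and 21.7%, 17.6% and 22.1% lower. Sele and Selp, the selectins on which leukocytes roll, were among the largest rises. Sele went from 1.37 ± 0.294 CPM (SD, n = 2) at 0 h to 18.7 ± 3.64 at 3 h with IL-1b, from 0.964 ± 0.202 to 14.4 ± 4.14 with TNF and from 1.72 ± 0.542 to 29.8 ± 7.46 with LPS (log2 change 3.75, 3.87 and 4.08). At 1 h it was higher still with the cytokines, at 54.3 ± 21.9 CPM with IL-1b and 25.7 ± 9.11 with TNF, and at 4.10 ± 2.08 with LPS. Selp changed by 2.99, 2.21 and 3.30. Both also stand in the endothelial list of 9 markers, as do Pecam1 and Esam. That list's sum in p53KO, Sele and Selp included, was 22.04 to 26.0 CPM at 0 h and 38.2 to 72.0 CPM at 3 h. Itgam and Itgb2 stand in the leukocyte list. Madcam1, an addressin for lymphocytes, had 1 count over both p53KO libraries at 0 h with IL-1b and 9 at 3 h, a ratio of 12.04 (95% interval of counting error 1.67 to 528), 2 and 16 with TNF (8.32, 1.96 to 74.6) and 1 and 18 with LPS (25.5, 4.02 to 1061). Of the integrin genes, picked out after their values were seen, Itgb1 rose by 0.40, 0.39 and 0.43 with the 3 stimuli. Itga4, whose product pairs with it to hold Vcam1, fell by 0.37 with IL-1b and by 0.42 with TNF, and had a log2 change of -0.25 with LPS that was not called (adjusted p = 0.16).

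Of 42 other genes of hyaluronan and its matrix, 27 could be tested. At 3 h 7 rose and 5 fell with IL-1b, 6 and 7 with TNF and 7 and 7 with LPS, with list medians of -0.10, -0.07 and -0.05. Over all genes tested, 21%, 18.4% and 21.9% were called higher and 21.7%, 17.6% and 22.1% lower. The genes with the largest changes were of different kinds. Adamts5, a protease that cleaves versican and aggrecan, fell from 124 ± 5.28 to 33.6 ± 2.12 CPM (SD, n = 2) with IL-1b, from 132 ± 10.4 to 50.1 ± 1.33 CPM with TNF and from 125 ± 6.4 to 45.2 ± 2.28 CPM with LPS (log2 change -1.88, -1.40 and -1.46). Adamts1, another versican-cleaving protease, fell by 1.01 with IL-1b. Ptx3, a pentraxin that binds Tnfaip6 in the hyaluronan matrix, rose by 1.57 with IL-1b and 2.09 with LPS. Thbs1, a thrombospondin, rose by 1.04 with TNF. Hyal1, a lysosomal hyaluronidase, fell by 1.00 with TNF and by 1.24 with LPS, from 2.88 ± 0.244 to 1.42 ± 0.276 CPM and from 3.29 ± 0.718 to 1.39 ± 0.339 CPM.

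**Figure D4:**
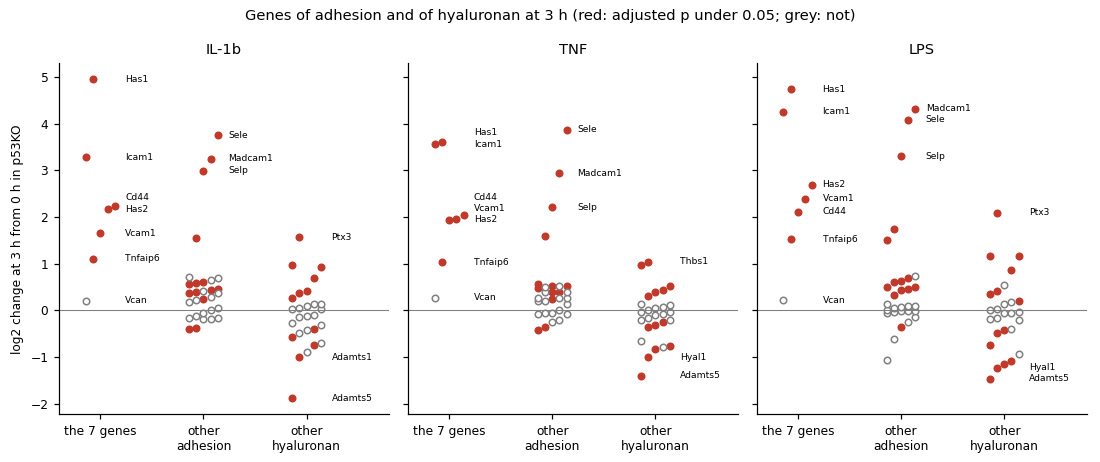
Log2 change at 3 h from 0 h in p53KO (vertical axis) for the 7 genes and for the other tested adhesion and hyaluronan genes, 1 point per gene, red where the adjusted p was under 0.05 and grey where not. The horizontal spread within a column is for legibility; the point of Madcam1 rests on 1 or 2 counts at 0 h. Has1 and Icam1 lie at 3.28 to 4.96, next to Sele, and the hyaluronan column runs on both sides of zero.

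The genes most like each of the 7 were taken over all 45 libraries by Pearson's r of log2 CPM after the mean of each of WT, KO-1 and KO-2 was taken off. These libraries share times and stimuli, so r is a description across them and carries no p. For Vcam1 the closest was Nfkbie (0.957), an inhibitor of NF-kB, and then Icam1 (0.945) and Birc3 (0.943). For Icam1 they were Tnfaip2 (0.978), Relb (0.977) and Tslp (0.969). For Cd44 they were Sema7a (0.974), Eaf1 (0.971) and Smurf1 (0.970), for Has1 Sphk1 (0.948), Rnf19b (0.939) and Pvr (0.937), and for Has2 Gcnt2 (0.967), Gfod1 (0.964) and Fst (0.953). Tnfaip6 had no gene above 0.874, which was reached by Map3k8 and Rgs16. Vcan was closest to Slit2 (0.928), Dst (0.910) and Il1rap (0.906). Within the 7 genes, Has2 had r = 0.897 with Cd44 and 0.904 with Has1, and Vcan had 0.210 with Has2 and 0.660 with Vcam1.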

How the data were processed

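RNA-seq counts per Ensembl gene were analysed as deposited, 1 column for each of the 45 libraries. The authors' raw counts came from STAR and featureCounts on mm9 with DESeq named too, per the submitters' processing notes. Poly(A) RNA was prepared with a kit that marks strand, per the labels' protocols, and the strand setting and annotation of the counting were not given in the sources used here. The 5 categories that name no gene held 24.7% of all counts and were left out. Antisense or overlapping genes held at most 10 counts in any library over the 7 genes. Symbols matched 32919 of 37991 identifiers through GENCODE M21.

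A gene was tested if 2 or more libraries reached 1 CPM, which left 13851. They were fitted together by the quasi-likelihood method of edgeR 4.0.16 in R 4.3.3, using TMM scaling, trended dispersion and 30 group means, with 15 residual degrees of freedom (common biological coefficient of variation 0.0679). Genotypes were compared on counts summed per line. Alternatives were RLE scaling, DESeq2 1.42.0, other filters, pooled 0 h libraries, p53KO libraries alone, length and GC offsets, and leaving out each p53KO library. KO-1 and KO-2 were read as lines from the titles, so the replicate number was also fitted as a block. Over 9632 genes their deviations correlated between groups with a median of 0.191 over 105 pairs (73 over 0.1). F tests with the 0.5 h or the 3 h time left out were added after the data were seen. Named other genes were those with the largest absolute change at 3 h among called genes of each list, at most 3 per list and stimulus, with the same direction in both lines; Itgb1 and Itga4 fall outside this rule and were chosen after their values were seen. The members and lists were chosen with earlier results of these data known.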

Additional observations from a re-analysis of the deposited data

Results flagged for a closer look

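The genotypes differed in the change from 0 h over the 4 times, by an F test in the edgeR fit, for 8 combinations of gene and stimulus. With IL-1b these were Vcam1 (adjusted p = 4.59e-05), Has2 (0.000231), Tnfaip6 (0.00215) and Cd44 (0.0246). With TNF it was Tnfaip6 (0.0099). With LPS they were Vcam1 (8.95e-06), Has2 (3.24e-05) and Tnfaip6 (0.000159). Each sets 2 p53KO libraries per time against 1 WT library, and a difference between genotypes cannot be told apart from one between lines.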

How the results depend on the processing

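No called log2 change or difference of the 7 genes changed sign under any alternative run, and among 3850 values compared 141 uncalled ones did. Smaller moves in the counts of genes called are left out here. Vcan at 3 h, for example, was called with each stimulus with the length and GC offsets and with no filter on low counts. The larger moves were as follows. With IL-1b at 0.5 h the 1 gene called lower became 0 with the length and GC offsets, with or without the replicate block, and 0 to 1 with 1 library left out; 1 gene was called higher with no filter on low counts or pooled 0 h libraries, against 0. With TNF at 1 h the 5 genes called higher became 2 to 3 with 1 library left out. With LPS at 1 h the 3 became 5 with the replicate block and offsets together and 5 with pooled 0 h libraries. Between 3 and 8 h with TNF the 5 genes called lower became 3 with DESeq2 and 3 to 5 with 1 library left out. LPS against IL-1b went from 3 to 5 with pooled 0 h libraries, and LPS against TNF from 3 to 6 with pooled 0 h libraries and to 1 to 3 with 1 library left out, the 1 being without KO-2 at 3 h of TNF. IL-1b against TNF went from 2 genes to 4 with no filter, 4 with the replicate block, 5 with the block and offsets, 5 with pooled 0 h libraries, 1 without the 0.5 h time and 1 to 2 with 1 library left out. The genotype difference in induction with IL-1b went from 4 genes to 2 without the 3 h time. With TNF it went from 1 gene to 4 with no filter, 2 with the replicate block, 4 with the block and offsets, 2 with the offsets and 2 with pooled 0 h libraries. The share of all genes called under each alternative was not taken, so these moves cannot be read as particular to the 7 genes. The cause of these moves was not tested, other than that fewer samples or times entered some fits. F tests were not run with DESeq2. With 4 to 7 counts of Has1 per p53KO library at 0 h, depth limits its change more than that of the other genes.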
